A study of Homo sapiens with 8 samples.

Results

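The genes described here form the entry gate of the secretory pathway: the signal recognition particle (SRP) and its receptor, the Sec61 channel and its partners, the translocon-associated TRAP complex, signal peptidase and the oligosaccharyltransferase (OST). The set holds 35 member symbols, each of which matched 1 row among the 58787 Ensembl gene identifiers of the deposited count table. All 35 passed the low-count filter. The cells were IMR32, an established human neuroblastoma line with amplified MYCN and, per the labels, no engineered genotype. They received either CR31B at its IC50, with no figure given for the dose, or 0.1% DMSO as vehicle, and RNA was taken at 6 h. CR31B is a rocaglate, a class of compounds that clamp the RNA helicase eIF4A onto messenger RNA and so block translation initiation. Each arm has 4 libraries. Replicate 1 of each arm was sequenced paired-end and replicates 2 to 4 single-end.

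In mammalian cells most secreted and membrane proteins are inserted into the endoplasmic reticulum (ER) while they are still being made. SRP binds the signal sequence as it leaves the ribosome and docks at the SRP receptor, which hands the ribosome to the Sec61 channel. Signal peptidase then removes the signal sequence, and OST transfers a preassembled sugar tree to asparagine residues of the growing chain. Transcription of many of these genes is known to respond to the unfolded protein response, through its transcription factors XBP1 and ATF6.

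Totals ranged from 43687828 to 64715535 counts per library, and a single member had 42 to 61082 counts in a library. All 9 adrenergic neuroblastoma markers examined were at 1 CPM (counts scaled to library size) or more in every library, as were all 3 neuronal markers and 4 of 5 mesenchymal markers (VIM at 297 to 529 CPM, PRRX1 at 0). All 3 epithelial and all 3 leukocyte markers stayed below 1 CPM. The fibroblast marker COL1A1 had 16.6 to 30.6 CPM, while COL3A1 had 0.1197 to 1.006 CPM and DCN 0 to 0.124 CPM. The endothelial marker CDH5 had 0.694 to 2.53 CPM and PECAM1 0 to 0.1131 CPM. The part of such cells or of that expression in the results was not tested. The libraries of replicate 1 stood apart from their labelled groups. On the first principal component of all genes the library labelled CR31B replicate 1 scored -26.4 and DMSO replicates 2 to 4 scored -29.4 to -25.8, while the library labelled DMSO replicate 1 scored 32 and CR31B replicates 2 to 4 scored 19 to 29. Results are given for replicates 2 to 4, which share the same sequencing layout, with pair 1 beside them. Directions follow the labels of replicates 2 to 4. The labels do not say whether replicates came from separate cultures, so p-values measure only the spread between these libraries, which may be technical. With 1 library per arm pair 1 has no replicate check.

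In replicates 2 to 4 the ER entry genes were mostly lower in the libraries labelled CR31B. Of 35 members 21 fell, 3 rose and 11 did not pass an adjusted p of 0.05 (edgeR quasi-likelihood test, Benjamini-Hochberg over all 16696 tested genes). Among all tested genes 17.6% were called lower and 23.8% higher. The median log2 fold change of the members was -0.22, against -0.007 over all tested genes. Members ranged from -0.52 for SEC11C, a catalytic subunit of signal peptidase, to 0.34 for SEC63, a partner of the channel. In CPM the 3 libraries of each arm did not overlap for 23 members that were below DMSO with CR31B and 4 that were above it, where 24.4% and 27.7% of all tested genes did the same. Together the members took 0.497%, 0.482% and 0.494% of all counts in CR31B replicates 2, 3 and 4, and 0.601%, 0.575% and 0.574% in DMSO. Without both libraries of replicate 4 the call numbers were 12 lower and 2 higher, with 8.08% and 15.3% of all tested genes called. Of all calls in replicates 2 to 4, 57.5% were higher with the TMM scaling used here, but 40% with upper quartile scaling, 43.1% with total counts, 45.6% with offsets on GC content and transcript length and 65.5% without replicate 4. Members gave 26 lower and 2 higher with upper quartile scaling (27% and 18% of all genes), and 26 and 3 with total counts (25.1% and 19.1%). With replicate number as a block the numbers were 26 and 4 (23.1% and 28.1%).

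Pair 1 ran the other way. The median difference between its libraries, CR31B minus DMSO in log2 CPM, was 0.21, against -0.24, -0.24 and -0.16 in pairs 2, 3 and 4. In pairs 2, 3 and 4 the difference was negative for 29, 30 and 28 members, and in pair 1 for 5, where 49.1% of all tested genes were negative. For pairs 2 to 4 the share of all tested genes was not counted. The members with a negative difference in pair 1 were SRP54, SEC62, SEC63, TRAM1 and STT3B. These are the 3 members that rose in replicates 2 to 4 and 2 that did not pass there. All 24 members called in replicates 2 to 4 had the opposite sign in pair 1, as did 98.9% of all called genes. For 22 of the 24 the library labelled CR31B replicate 1 lay nearer to the mean of DMSO replicates 2 to 4 than to that of CR31B, and for 20 of the 24 the library labelled DMSO replicate 1 lay nearer to CR31B. Nearness was not counted over all genes. An interaction of treatment with sequencing layout passed for 25 members (edgeR quasi-likelihood test, Benjamini-Hochberg), where 42.5% of all tested genes passed. Of the 24 called members SEC61G and SSR4 did not pass it, and SRPRA, DDOST and MAGT1 passed it without a call in replicates 2 to 4. Only the single-end libraries give this test its error.

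**Figure D1:**
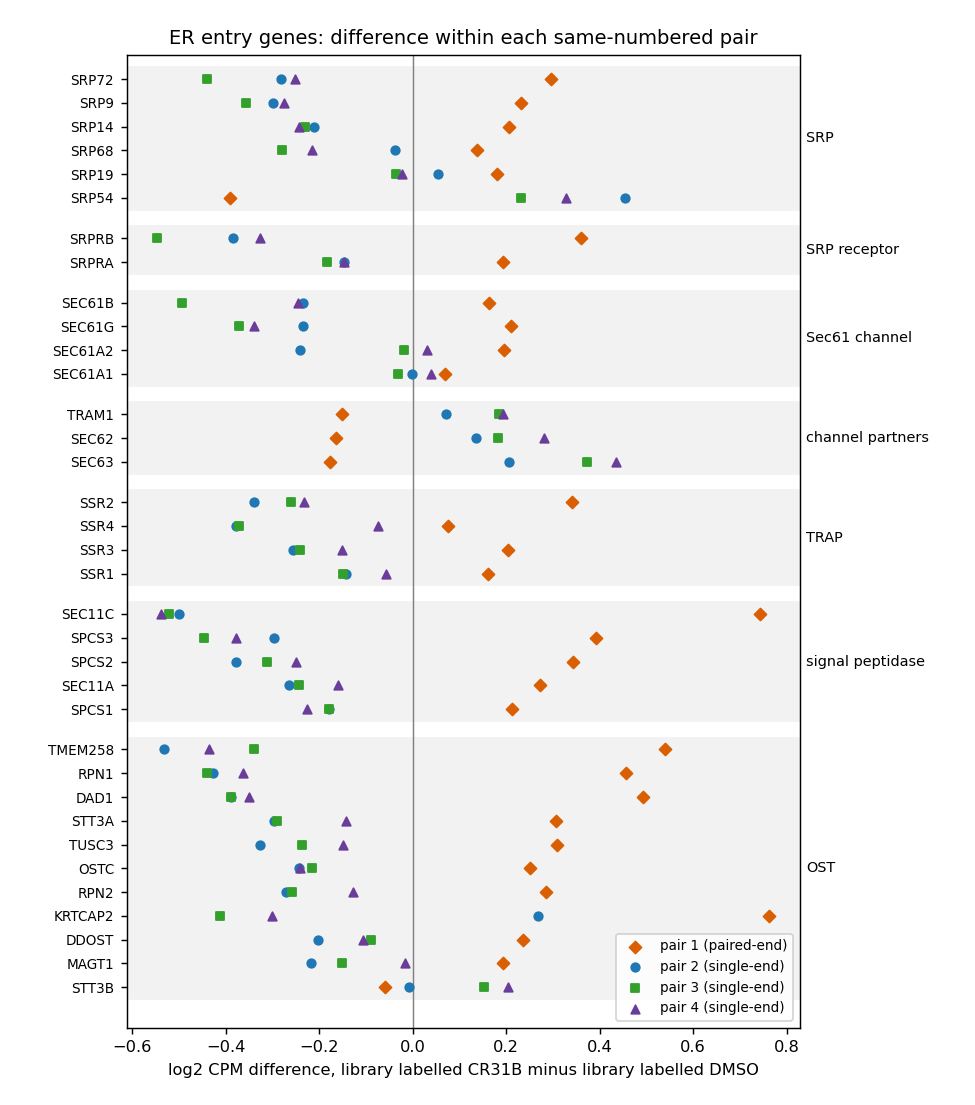
Difference in log2 CPM between the library labelled CR31B and the library labelled DMSO within each numbered pair, for the 35 members by complex. Circles, squares and triangles are the single-end pairs 2, 3 and 4, and orange diamonds the paired-end pair 1. Most members lie left of 0 in pairs 2 to 4 and right of 0 in pair 1, and SRP54, SEC62, SEC63 and TRAM1 lie on the opposite side in each case.

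With all 8 libraries under the labels as given, no member was called (0 of 35), nor was any gene (0% of 16518 tested). Log2 fold changes of the members lay between -0.22 and 0.21 with a median of -0.10, and the smallest adjusted p was 0.707 (edgeR quasi-likelihood test, Benjamini-Hochberg). At an unadjusted p under 0.05 there were 0 members by edgeR and 0 by DESeq2, where 1.24% and 1.59% of all tested genes passed. Leaving out either library of replicate 1 gave 24 called members, but this does not test what that library contributes. The fit holds a covariate for sequencing layout, which takes up the replicate 1 library that remains, then the only paired-end library. The fit in effect repeats that of the single-end libraries, so the 24 follows from the design. Over all tested genes, 6920 of 16640 were called without CR31B replicate 1 and 6906 of 16807 without DMSO replicate 1.

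**Figure D2:**
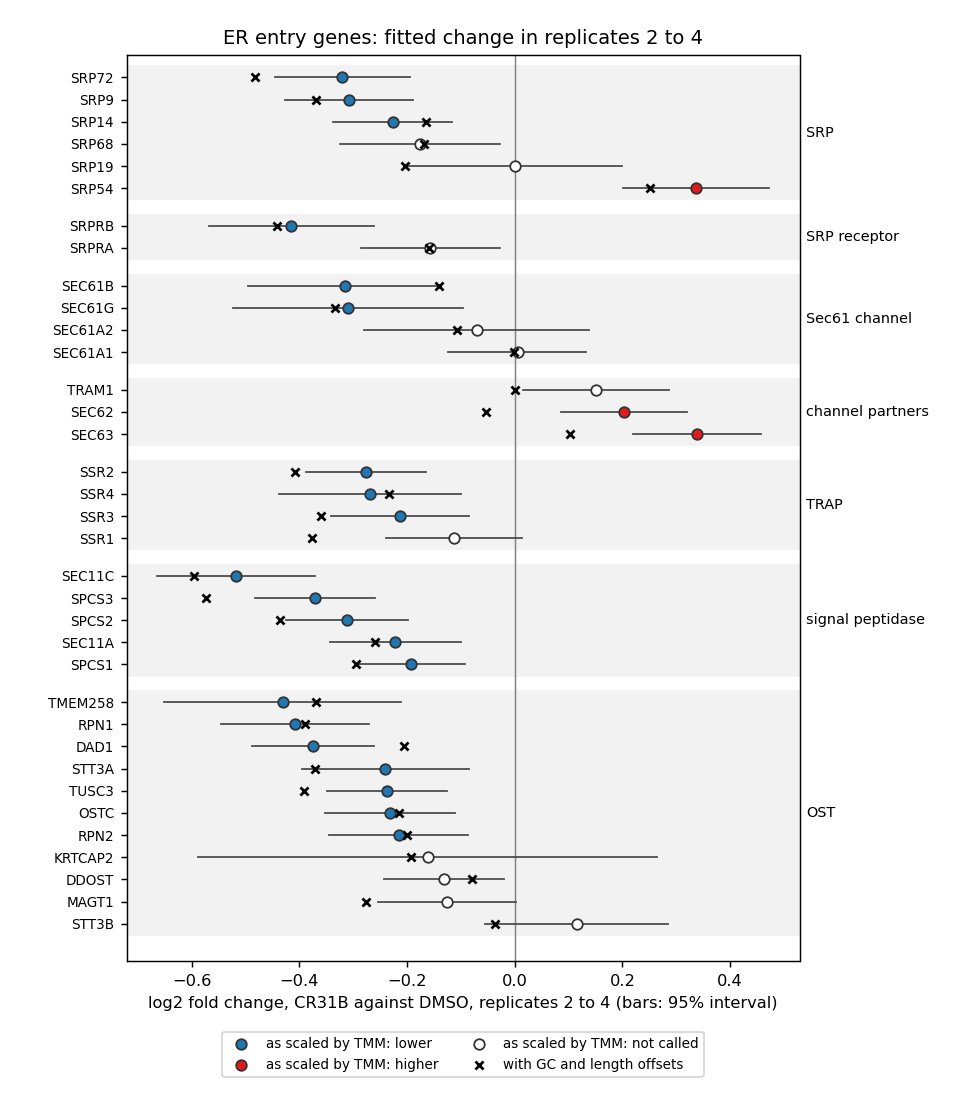
Log2 fold change of each member in replicates 2 to 4 with its 95% interval. Filled blue points were called lower, filled red points higher and open points not called. Crosses give the value after offsets on GC content and transcript length, which move SEC62 and SEC63 toward or past 0 and leave SRP54 right of 0.

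SRP is a ribonucleoprotein of a small RNA and 6 proteins, and its protein genes did not move as a block: 3 fell, 1 rose and 2 did not pass. Over all tested genes 17.6% were called lower and 23.8% higher. SRP54, the GTPase subunit that recognises the signal sequence (chromosome 14, 34981957 to 35029567, plus strand, GRCh38), rose. It had 76.7, 76.6 and 78.3 CPM in CR31B replicates 2, 3 and 4 and 56, 65.2 and 62.3 CPM in the matching DMSO libraries. Pair 1 gave 58.9 CPM under the CR31B label and 77.2 CPM under the DMSO label. The groups of replicates 2 to 4 did not overlap, and each library of pair 1 fell inside the range that the other arm had there. The log2 fold change was 0.34 ± 0.061, where ± gives the standard error (edgeR adjusted p 0.0014), and 0.25 (edgeR adjusted p 0.0072) after offsets on GC content and transcript length.

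SRP9, which with SRP14 forms the domain that slows elongation on the ribosome (chromosome 1, 225777813 to 225790466, plus strand), was per kilobase of exon the most abundant member, at 527 CPM per kb in DMSO replicates 2 to 4. It had 765, 706 and 733 CPM with CR31B and 940, 904 and 887 CPM with DMSO, and 873 (CR31B) and 744 (DMSO) in pair 1. Every CR31B library of replicates 2 to 4 was below every DMSO library. SRP72, a large SRP protein that pairs with SRP68, had 231, 209 and 238 CPM with CR31B, 281, 284 and 283 CPM with DMSO, and 274 (CR31B) and 224 (DMSO) in pair 1. Its DMSO libraries of replicates 2 to 4 were nearly level, and all CR31B libraries lay below them. The log2 fold change was -0.31 ± 0.053 for SRP9 and -0.32 ± 0.056 for SRP72, with adjusted p of 0.0011 and 0.00117 (edgeR).

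SRP14 fell by 0.23 ± 0.05 on the log2 scale (adjusted p 0.0045, edgeR), a call that was lost without both libraries of replicate 4 (0.0701, edgeR). SRP68 had -0.18 with an adjusted p of 0.0581, or 0.0136 with replicate number as a block (edgeR). SRP19, which helps SRP54 onto the RNA, had 10.3 to 11.9 CPM with CR31B and 10.6 to 12.1 CPM with DMSO in replicates 2 to 4. The 95% interval of its log2 fold change was -0.20 to 0.20, and 18.2% of its exonic bases are shared with other genes on its strand.

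The SRP receptor has 2 subunits. SRPRB, the membrane-anchored GTPase (chromosome 3, 133784033 to 133825772, plus strand), had 64, 54 and 63.6 CPM in CR31B replicates 2, 3 and 4 and 83.6, 78.9 and 79.8 CPM with DMSO. Pair 1 had 91.8 CPM in the library labelled CR31B and 71.5 CPM in the library labelled DMSO. SRPRB was lower with CR31B in each of pairs 2 to 4 and higher in pair 1. Its log2 fold change was -0.41 ± 0.069 (edgeR adjusted p 0.000829). SRPRB shares 18.4% of its exonic bases with AC080128.2 and RAB6B on the other strand and 2.7% with TF on its own strand. SRPRA, the subunit that binds SRP54, had 49.5, 46.3 and 51.3 CPM with CR31B and 54.7, 52.5 and 56.8 CPM with DMSO, and 58.6 (CR31B) and 51.2 (DMSO) in pair 1. These groups also did not overlap, but the log2 value of -0.16 gave an edgeR adjusted p of 0.052, and 0.0104 with the replicate block.

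**Figure D3:**
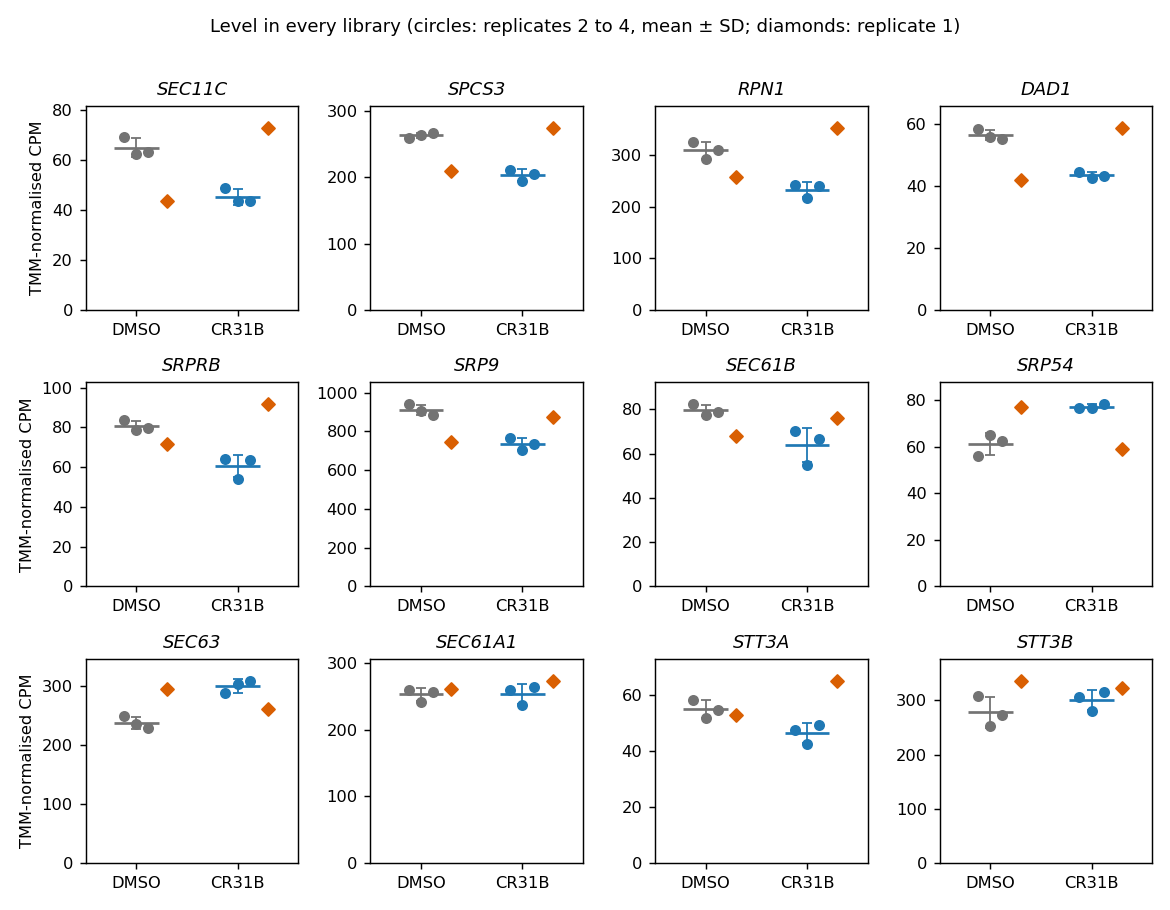
TMM-normalised CPM in every library for 12 members; the vertical axes start at 0. Circles are replicates 2 to 4 with their mean and SD, and orange diamonds are replicate 1. In SEC11C, SPCS3, RPN1, DAD1, SRPRB, SRP9 and SEC61B the CR31B circles lie below the DMSO circles, in SRP54 and SEC63 above them, and in SEC61A1 and STT3B the 2 sets overlap.

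Sec61 is a channel of one large alpha subunit and the small beta and gamma subunits. The small subunits fell and the alpha subunits did not pass. SEC61A1, the main pore-forming subunit (chromosome 3, 128051641 to 128071683, plus strand), had 260, 237 and 264 CPM in CR31B replicates 2, 3 and 4 and 260, 242 and 257 CPM with DMSO. The libraries of pair 1 had 274 (CR31B) and 261 (DMSO). Its groups overlapped almost fully, and the 95% interval of the log2 fold change was -0.12 to 0.13. Its paralogue SEC61A2 had 26.4, 33.8 and 29.5 CPM with CR31B and 31.2, 34.2 and 28.9 CPM with DMSO, and 33.9 (CR31B) and 29.6 (DMSO) in pair 1, with an interval of -0.28 to 0.14.

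SEC61B, the beta subunit with a single membrane span (chromosome 9, 99222064 to 99230615, plus strand), had 70.1, 55.1 and 66.4 CPM with CR31B and 82.4, 77.5 and 78.7 CPM with DMSO. Pair 1 had 76 CPM (CR31B) and 67.8 CPM (DMSO). The groups of replicates 2 to 4 did not overlap, and CR31B replicate 3 was the lowest library. Its log2 fold change of -0.32 ± 0.081 gave an edgeR adjusted p of 0.00974. After GC and length offsets the SEC61B value was -0.14 with an adjusted p of 0.173, and without both libraries of replicate 4 the adjusted p was 0.0587 (edgeR); at 687 bases its longest transcript is the shortest of the called members.

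SEC61G, the gamma subunit, had 38.6, 29.7 and 34.5 CPM with CR31B, 45.5, 38.5 and 43.7 CPM with DMSO, and 42 (CR31B) and 36.3 (DMSO) in pair 1. CR31B replicate 2 and DMSO replicate 3 had nearly the same level, so its groups overlapped. The log2 fold change was -0.31 ± 0.096 (edgeR adjusted p 0.0254). That call was lost without CR31B replicate 3, CR31B replicate 4, DMSO replicate 2 or DMSO replicate 4, with adjusted p of 0.0578, 0.0686, 0.092 and 0.0842 (edgeR), and without both libraries of replicate 4 (0.163).

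The channel partners were the one group with higher values throughout. SEC62 and SEC63 act on proteins that enter Sec61 after their synthesis, SEC63 by recruiting the ER chaperone BiP, and TRAM1 lies beside the channel and contacts nascent chains. SEC63 (chromosome 6, 107867756 to 107958189, minus strand) had 287, 304 and 309 CPM in CR31B replicates 2, 3 and 4 and 249, 234 and 228 CPM with DMSO. SEC62 (chromosome 3, 169966635 to 169998373, plus strand) had 191, 192 and 210 CPM with CR31B and 174, 169 and 172 CPM with DMSO. TRAM1 had 138, 133 and 147 CPM with CR31B and 132, 117 and 128 CPM with DMSO. In none of the 3 genes did the groups overlap. In pair 1 the library labelled CR31B was the lower one in each, with 261 against 294 CPM for SEC63, 188 against 210 CPM for SEC62 and 139 against 154 CPM for TRAM1.

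SEC63 rose by a log2 fold change of 0.34 ± 0.054 and SEC62 by 0.20 ± 0.052, with adjusted p of 0.000608 and 0.0107 (edgeR). TRAM1 had 0.15 with an adjusted p of 0.0724, or 0.0113 with the replicate block (edgeR). SEC62 and SEC63 have long transcripts of low GC content. The longest SEC62 and SEC63 transcripts have 6568 and 6411 bases at 36.7% and 39.5% GC. After offsets on GC content and length SEC63 had 0.10 with an adjusted p of 0.128, SEC62 had -0.053 with 0.392 and TRAM1 had 0.001 with 0.988 (edgeR), so the calls of SEC62 and SEC63 did not hold. SEC62 also lost its call with upper quartile scaling (0.11, adjusted p 0.0761) and without both libraries of replicate 4 (0.16, adjusted p 0.13, edgeR).

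TRAP is a complex of 4 membrane proteins that sits at the channel and helps some signal sequences to insert. SSR2, SSR3 and SSR4 fell and SSR1 did not pass, where 17.6% of all tested genes were called lower. SSR2, the beta subunit, had 194, 194 and 206 CPM in CR31B replicates 2, 3 and 4 and 246, 232 and 242 CPM with DMSO, and 254 (CR31B) and 201 (DMSO) in pair 1. SSR3, the gamma subunit, had 280, 258 and 287 CPM with CR31B, 334, 305 and 318 CPM with DMSO, and 332 (CR31B) and 288 (DMSO) in pair 1. SSR4, the delta subunit, had 62.8, 57.9 and 71.6 CPM with CR31B, 81.6, 74.8 and 75.4 CPM with DMSO, and 83.8 (CR31B) and 79.5 (DMSO) in pair 1. None of the 3 overlapped between the arms in replicates 2 to 4, and the difference in pair 4 was small for SSR4, at -0.074.

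The log2 fold changes were -0.28 ± 0.05 for SSR2, -0.21 ± 0.058 for SSR3 and -0.27 ± 0.076 for SSR4, with adjusted p of 0.0014, 0.0133 and 0.0163 (edgeR). Without DMSO replicate 2 the adjusted p was 0.0549 for SSR3 and 0.0646 for SSR4, and without both libraries of replicate 4 it was 0.0662 for SSR3 (edgeR). Without both libraries of replicate 2 it was 0.0712 for SSR3 and 0.125 for SSR4 (edgeR). SSR1, the alpha subunit, had -0.11 with an adjusted p of 0.139 as scaled, 0.0316 with the replicate block, and -0.38 with 0.000638 after GC and length offsets (edgeR). Its longest transcript has 9669 bases, the longest of all members. The offsets also moved SSR3 to -0.36.

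Promoter sequences were examined because the complexes share regulation by the unfolded protein response in general knowledge. RefSeq windows (GRCh38.p14) from 250 bases before to 50 bases after a start were at hand for 29 of the 35 members, some with more than 1 start. They were searched on both strands for the ER stress elements ERSE (CCAAT and CCACG with 9 bases between) and ERSE-II (ATTGG and CCACG with 1 base between), for the XBP1-type element UPRE (TGACGTGG) and for the ATF4-type element CARE (TGATGCAAT). UPRE matched in 4 of the 29 members, and 0.927% of 27305 genes with a window held a match. A gene counted as a match if the window of any of its starts held one. Members and all genes were not matched for number of starts, and their shares were not compared by a test. ERSE, ERSE-II and CARE matched in 0 members, and in 0.0916%, 0.0696% and 0.293% of all genes. The 4 UPRE matches read CCACGTCA on the strand of the gene and are shown in capitals, each with the bases around it, 5′ to 3′ on that strand, since they are the searched letters that the members hold.
SRP19 (chr5:112861165-112861192, plus strand): agtcttcatgCCACGTCAgagactagag
SEC62 (chr3:169966780-169966806, plus strand): cctcctcgctCCACGTCAgagggaacc
SSR3 (chr3:156554149-156554176, minus strand): ctgataacagCCACGTCAgcaaggaaac
SSR4 (chrX:153794529-153794556, plus strand): cagggaggggCCACGTCAgtgctgccag
The match ends 105, 10, 34 and 122 bases before the RefSeq start for SRP19, SEC62, SSR3 and SSR4, and for SSR3 and SSR4 it lies by 1 of several starts. By the GENCODE 29 gene bounds the matches of SEC62, SSR3 and SSR4 lie inside the gene. SSR3 and SSR4 fell, SEC62 rose and SRP19 did not pass. After offsets on GC content and transcript length the log2 values were -0.36 for SSR3, -0.23 for SSR4, -0.053 for SEC62 and -0.20 for SRP19, with edgeR adjusted p of 0.000677, 0.0253, 0.392 and 0.0967. A match is a description of the sequence and not a bound site.

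Signal peptidase was the one complex here whose member genes all fell, 5 of 5, where 17.6% of all tested genes were called lower. SEC11C, one of its alternative catalytic subunits (chromosome 18, 59139477 to 59158836, plus strand), had the largest fall of all members. It had 48.9, 43.4 and 43.5 CPM in CR31B replicates 2, 3 and 4 and 69.1, 62.3 and 63.1 CPM with DMSO. The library labelled CR31B replicate 1 had 72.9 CPM and the library labelled DMSO replicate 1 had 43.6 CPM, so the libraries with low SEC11C were CR31B replicates 2 to 4 and DMSO replicate 1. Its log2 fold change was -0.52 ± 0.066 (95% interval -0.66 to -0.37) (edgeR adjusted p 0.000142), a level 30.2% lower.

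SPCS3, an accessory subunit needed for activity (chromosome 4, 176319964 to 176332245, plus strand), had 212, 194 and 205 CPM with CR31B and 260, 264 and 267 CPM with DMSO, and 275 (CR31B) and 210 (DMSO) in pair 1. SPCS2, another accessory subunit, had 95, 92 and 96.3 CPM with CR31B, 123, 114 and 114 CPM with DMSO, and 128 (CR31B) and 101 (DMSO) in pair 1. The other catalytic subunit, SEC11A, had 164, 153 and 159 CPM with CR31B, 197, 181 and 178 CPM with DMSO, and 203 (CR31B) and 168 (DMSO) in pair 1. For each of these genes the lowest DMSO library of replicates 2 to 4 was above the highest CR31B library.

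The log2 fold changes were -0.37 ± 0.05 for SPCS3, -0.31 ± 0.051 for SPCS2 and -0.22 ± 0.055 for SEC11A, with adjusted p of 0.000219, 0.000746 and 0.00833 (edgeR). SPCS1 had -0.19 ± 0.045 (edgeR adjusted p 0.00627), but 58.1% of its exonic bases lie opposite exons of GLT8D1 and NEK4 on the other strand. The deposited counts are labelled reverse, with no further word on the strand setting in the sources used here, so the SPCS1 value is uncertain. Offsets on GC content and length moved SPCS3 to -0.57 and SPCS1 to -0.29. Without both libraries of replicate 4 the adjusted p was 0.105 for SPCS1 and 0.052 for SEC11A (edgeR).

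Of the 11 OST subunit genes in the set 7 fell, none rose and 4 did not pass, where 17.6% of all tested genes were called lower and 23.8% higher. RPN1 (ribophorin I), which contacts the substrate and the ribosome (chromosome 3, 128619970 to 128681075, minus strand), had 242, 216 and 241 CPM in CR31B replicates 2, 3 and 4 and 326, 293 and 310 CPM with DMSO. In pair 1 it had 353 (CR31B) and 258 (DMSO). DAD1, a small scaffold subunit named for cell death in its absence (chromosome 14, 22564905 to 22589269, minus strand), had 44.4, 42.5 and 43.1 CPM with CR31B, 58.1, 55.6 and 55 CPM with DMSO, and 58.7 (CR31B) and 41.7 (DMSO) in pair 1. Both genes were lower in every CR31B library than in every DMSO library of replicates 2 to 4, and the arms were reversed in pair 1.

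RPN1 had a log2 fold change of -0.41 ± 0.062 and DAD1 of -0.37 ± 0.051, with adjusted p of 0.000479 and 0.000233 (edgeR). With GC and length offsets DAD1 had -0.21 and an adjusted p of 0.00635 (edgeR). TMEM258, another small subunit, had 4.73, 5.45 and 4.97 CPM with CR31B, 6.84, 6.9 and 6.73 CPM with DMSO, and 5.58 (CR31B) and 3.83 (DMSO) in pair 1. Its log2 fold change was -0.43 ± 0.099 (edgeR adjusted p 0.00559), and 0.0686 without both libraries of replicate 4. TMEM258 shares 18.4% of its exonic bases with FEN1 and MYRF on the other strand. KRTCAP2 was the lowest member, at 1.28 to 1.64 CPM with CR31B and 1.36 to 2.07 CPM with DMSO in replicates 2 to 4, and no difference was detectable at this depth (95% interval of the log2 fold change -0.59 to 0.27). It shares 18.4% of its exonic bases with another gene on its strand.

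RPN2 and OSTC, further core and accessory subunits, fell by 0.22 ± 0.058 and 0.23 ± 0.054 on the log2 scale, with adjusted p of 0.0128 and 0.0062 (edgeR). DDOST, which holds the complex together at the membrane, had -0.13 with an adjusted p of 0.0569, or 0.0229 with the replicate block (edgeR). DDOST shares 15.7% of its exonic bases with PINK1-AS on its strand. Without both libraries of replicate 4 OSTC had an adjusted p of 0.0778, and without both of replicate 2 RPN2 had 0.0922 (edgeR).

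OST exists in 2 forms. In one the catalytic subunit STT3A works at the translocon on chains as they enter, and in the other STT3B, with MAGT1 or TUSC3, works on sites that were skipped. STT3A (chromosome 11, 125591712 to 125625215, plus strand) had 47.6, 42.5 and 49.4 CPM with CR31B and 58.4, 51.9 and 54.6 CPM with DMSO, and 65.2 (CR31B) and 52.8 (DMSO) in pair 1. STT3B (chromosome 3, 31532638 to 31637622, plus strand) had 306, 280 and 315 CPM with CR31B and 308, 252 and 274 CPM with DMSO, and 323 (CR31B) and 336 (DMSO) in pair 1. STT3A was lower in every CR31B library of replicates 2 to 4, while the STT3B groups overlapped.

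STT3A had a log2 fold change of -0.24 ± 0.07 (edgeR adjusted p 0.0183). That call was lost without DMSO replicate 2 or DMSO replicate 4, with adjusted p of 0.0762 and 0.0509, and without both libraries of replicate 2 (0.0886) or of replicate 4 (0.0609, edgeR), while after GC and length offsets the value was -0.37 with 0.00198. STT3B had 0.11 with a 95% interval of -0.055 to 0.28. Per kilobase of exon STT3B was the more abundant of these catalytic subunits, at 55.4 CPM per kb against 7.43 in DMSO replicates 2 to 4.

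Of the thioredoxin-like subunits that go with STT3B, TUSC3 fell and MAGT1 did not pass. TUSC3 had 108, 108 and 113 CPM with CR31B, 135, 128 and 125 CPM with DMSO, and 141 (CR31B) and 114 (DMSO) in pair 1. MAGT1 had 61.8, 59.9 and 66.9 CPM with CR31B, 71.8, 66.5 and 67.7 CPM with DMSO, and 75.4 (CR31B) and 65.9 (DMSO) in pair 1. The TUSC3 groups were apart and the MAGT1 groups overlapped. Their log2 fold changes were -0.24 ± 0.05 with an adjusted p of 0.00355 and -0.13 ± 0.058 with 0.109 (edgeR). MAGT1 had 0.0485 with the replicate block, and -0.28 with 0.00265 after GC and length offsets, which also moved TUSC3 to -0.39 (edgeR).

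The ratio of alternative subunits within a library needs no scaling between libraries and was taken for 4 gene pairs, with no test. The log2 count ratio of STT3A to STT3B was -2.69, -2.72 and -2.67 in CR31B replicates 2, 3 and 4 and -2.40, -2.28 and -2.33 in DMSO, with -2.31 (CR31B) and -2.67 (DMSO) in pair 1. The ratio of SEC11A to SEC11C was 1.74, 1.82 and 1.87 with CR31B and 1.51, 1.54 and 1.49 with DMSO, with 1.48 (CR31B) and 1.95 (DMSO) in pair 1. In both the arms of replicates 2 to 4 were apart by more than the spread within them. The ratio of MAGT1 to TUSC3 was -0.85 to -0.75 with CR31B and -0.94 to -0.89 with DMSO, apart by a smaller margin. That of SEC61A1 to SEC61A2 was 2.81 to 3.30 with CR31B and 2.82 to 3.15 with DMSO, and overlapped.

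**Figure D4:**
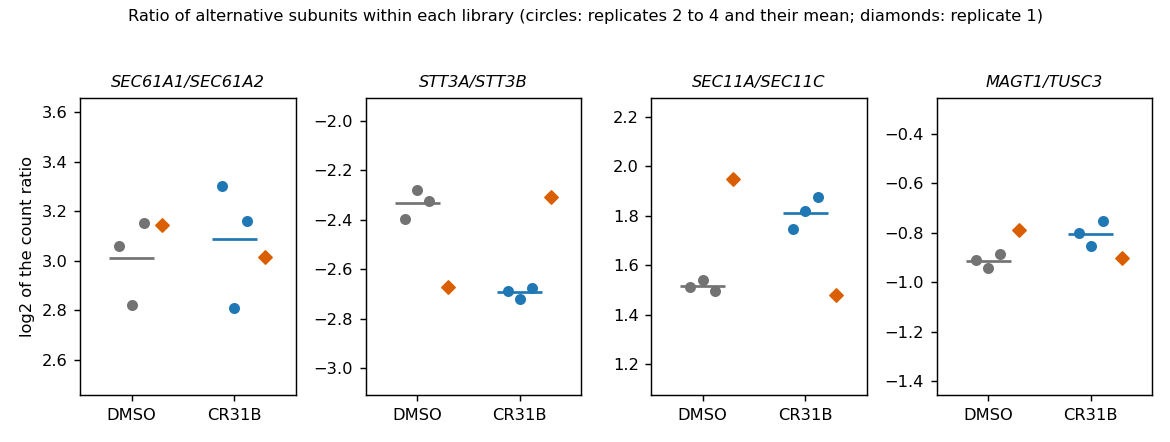
Log2 of the count ratio of alternative subunits in each library; every panel spans the same height. Circles are replicates 2 to 4 with their mean, and orange diamonds are replicate 1. STT3A/STT3B is lower and SEC11A/SEC11C higher in the CR31B circles, and SEC61A1/SEC61A2 overlaps.

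Transcript length and GC content are given by call as a description, with no test. The longest annotated transcript had a median of 2515 bases for the 21 that fell, 6411 for the 3 that rose and 3394 for the 11 that did not pass. Median GC content was 43.8%, 39.5% and 45.4% in the same order. The ranges overlapped, at 687 to 5166 bases and 35.8% to 60.8% GC for those that fell and 2327 to 6568 bases and 36.7% to 41.3% GC for those that rose, with SRP54 the shortest of the latter. After offsets on GC content and length 22 members were called lower and 1 higher, where 22.6% and 18.9% of all tested genes were called. Of the 24 members called without the offsets 21 were called the same way with them, SRP54 being the 1 higher.

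Other genes of ER entry and early secretion were taken from 7 further lists. Of 88 tested genes in them 30 fell and 15 rose in replicates 2 to 4, where 17.6% and 23.8% of all tested genes did. All 45 had the opposite sign in pair 1, as did 98.9% of all called genes. The median log2 fold change of the 88 was -0.088. With upper quartile scaling 47 were lower and 9 higher (27% and 18% of all genes), and with GC and length offsets 43 and 9 (22.6% and 18.9%). Enzymes that build the lipid-linked sugar donor of OST had 11 of 24 lower and 3 higher, with a median of -0.15. The largest falls among them were ALG8 (-0.70 ± 0.063, adjusted p 1.47e-05), which adds a glucose to the donor, DOLPP1 (-0.54 ± 0.076, 0.000309), which recycles the dolichol carrier, and ALG3 (-0.44 ± 0.068, 0.000525), a mannosyltransferase (edgeR). Over replicates 2 to 4 ALG8 averaged 107 ± 8.45 CPM with CR31B against 175 ± 5.71 CPM with DMSO (SD, n = 3).

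Other routes into the membrane work beside Sec61. Their counts stand beside 17.6% lower and 23.8% higher among all tested genes in replicates 2 to 4. The ER membrane complex, an insertase, had 2 of 10 lower and 2 higher, near those shares. EMC10 was at -0.47 ± 0.068, EMC8 at 0.47 ± 0.055 and EMC2 at 0.30 ± 0.058 (adjusted p 0.000317, 7.95e-05 and 0.00198, edgeR). The pathway for tail-anchored proteins had 3 of 7 lower and none higher. These were GET1, a subunit of its membrane receptor, at -0.34 ± 0.067, and the cytosolic chaperones BAG6 and SGTA at -0.29 ± 0.052 and -0.23 ± 0.071 (adjusted p 0.00229, 0.00125 and 0.0232, edgeR). The multipass translocon had 2 of 7 tested genes lower, TMEM147 (-0.35) and NCLN (-0.32), and CCDC47 higher (0.24). After GC and length offsets EMC2 had 0.16 with an adjusted p of 0.053 and CCDC47 0.12 with 0.149 (edgeR). CCDC47 also lost its call without CR31B replicate 4 or DMSO replicate 3, and SGTA without CR31B replicate 4, DMSO replicate 2 or DMSO replicate 4. Without both libraries of replicate 4 the adjusted p was 0.176 for SGTA, 0.118 for CCDC47 and 0.0867 for NCLN (edgeR).

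Downstream of glycan transfer, the trimming and lectin cycle had 6 of 14 genes lower and 3 higher. Of all tested genes 17.6% were lower and 23.8% higher. CALR, the ER lectin calreticulin, fell by 0.72 ± 0.063 and EDEM2, a mannosidase of glycoprotein disposal, by 0.51 ± 0.101 on the log2 scale, while the mannosidase MAN1A1 rose by 0.84 ± 0.175 (adjusted p 1.32e-05, 0.00226 and 0.00316, edgeR). The COPII coat, which buds vesicles from the ER, had 5 of 13 higher and 1 lower, with a median of 0.12. SEC24D, a cargo-binding coat subunit, rose from 132.5 ± 7.11 to 232 ± 11.1 CPM (SD, n = 3), a log2 fold change of 0.81 ± 0.058, followed by TFG at 0.39 and PREB, the exchange factor that starts coat assembly, at 0.30 (adjusted p 3.89e-06, 7.83e-05 and 0.00112, edgeR). Of the remaining translocon and ER ribosome contacts 5 of 13 fell and 1 rose. TMEM208 had -0.36, the small OST subunit OST4 -0.31 and the ribosome-binding LRRC59 0.26 (adjusted p 0.00379, 0.00223 and 0.00385, edgeR). OST4 had -0.071 with an adjusted p of 0.313 after GC and length offsets (edgeR). Without both libraries of replicate 4 the adjusted p was 0.0516 for TMEM208 and 0.0508 for OST4 (edgeR).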

How the data were processed

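The authors deposited raw, unnormalised counts for Ensembl genes in 1 table covering 8 libraries. Per the submitters' processing notes the build was GRCh38, and FastQC 0.11.7, STAR 2.7.2b, edgeR 3.36.0 and limma 3.50.3 were used. The counting tool is not given in the sources used here, and the strand setting only by the word reverse in the label of the counts. Columns were matched to libraries by name; 1 header lacks its first letter. Tests used edgeR 4.0.16 under R 4.3.3 (quasi-likelihood, two-sided, filterByExpr, TMM, Benjamini-Hochberg over all tested genes, threshold 0.05). The 6 single-end libraries formed one fit, and all 8, with layout as covariate, another. Levels are TMM-normalised CPM. Differences within a pair use log2 CPM, prior count 1. Annotation is GENCODE 29; 58515 of 58787 identifiers matched.

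Same-numbered libraries deviated from their group means together (correlation 0.208 in replicate 2, 0.388 in replicate 3, 0.157 in replicate 4). Libraries of different number were not compared in this way. The main fit took no account of replicate number, while the replicate block did. The smallest mean chi-square per gene between any 2 libraries was 7.16, so each counted once. Members and lists were chosen with earlier results of these data known. Every member is accounted for, with all libraries for up to 3 members per complex with the largest change and for 4 paralogue pairs; other lists name up to 3 called genes. Alternatives were scaling, filters, DESeq2 1.42.0, limma voom 3.58.1, a replicate block, GC and length offsets, and leaving out libraries. The scripts were tested on simulated data, which held no layout effect and no reversed pair, so that test does not bear on pair 1. Precision from depth covers counting error only.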

Additional observations from a re-analysis of the deposited data

Results flagged for a closer look

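The difference between the arms was not the same in the paired-end pair, which is replicate 1, as in replicates 2 to 4 for 25 of 35 members by the interaction test, where 42.5% of all tested genes passed. With 1 paired-end library per arm, layout and replicate 1 cannot be told apart. Single libraries far from the other 3 of their labelled arm were looked for with Dixon's ratio, in which a library's distance from its neighbour is divided by the full spread of the arm, at the 95% critical value. Of 72 values looked at 11 passed, where chance gives about 3.6 (1 in 20), and in all 11 the distant library was replicate 1. In the libraries labelled CR31B the ratio was 0.913 for SRP54, 0.887 for SPCS1, 0.882 for SPCS2, 0.892 for DDOST, 0.881 for DAD1, 0.841 for TUSC3 and 0.883 for the share of counts taken by all members. In those labelled DMSO it was 0.953 for SRP72, 0.888 for SEC62, 0.88 for SPCS3 and 0.946 for TMEM258. These values share their libraries and are not independent.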

How the results depend on the processing

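In replicates 2 to 4, 21 of the 24 called members kept their call under every scaling, filter, tool, block and offset tried, the exceptions being SEC61B, SEC62 and SEC63, and 11 kept it when libraries or pairs were also left out. The count of lower members was 21 to 26 under the settings and 12 to 23 with libraries left out, the 12 coming without replicate 4; the count of higher members was 1 with GC and length offsets, also with the replicate block added, and 2 to 4 with libraries left out. With all 8 libraries the count stayed 0 except without a library of replicate 1, so that leaving out 1 library gave 0 to 24. The 24 in effect repeats the fit of replicates 2 to 4, as the layout covariate takes up the replicate 1 library that remains. Without CR31B replicate 1 the fit called 6920 of 16640 tested genes, and without DMSO replicate 1 it called 6906 of 16807. The replicate block gave 26 lower and 4 higher members, adding the 6 calls named above, and changed no other member's call. In the further lists the lower count was 47 with upper quartile scaling and with GC and length offsets plus replicate block, and 19 to 27 with libraries left out; the higher count was 9 with upper quartile scaling and with GC and length offsets, and 8 to 18 with libraries left out. Values near 0 changed sign: SEC61A1 had -0.008 with RLE scaling and with DESeq2, -0.092 with upper quartile scaling, -0.075 with total counts, -0.007 without a filter, -0.033 with the stricter filter and -0.002 with GC and length offsets with or without the block. With those offsets SEC62 had -0.053 and STT3B -0.036, and with the block added -0.054 and -0.032. With libraries left out SEC61A1 ranged from -0.034 to 0.054, SEC61A2 from -0.169 to 0.014 and KRTCAP2 from -0.366 to 0.026. With all 8 libraries SEC61A1 had -0.022 with upper quartile scaling, and leaving out 1 library gave -0.001 to 0.1 for SRP19, -0.071 to 0.066 for SEC61A2, -0.133 to 0.001 for DDOST and -0.161 to 0.233 for KRTCAP2. Beyond what each setting does by construction, the cause was not tested.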
